A study of Mus musculus with 4 samples.

Results

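The genes described here are 32 genes of glycolysis, lactate handling and the response to low oxygen, followed in T cells from mouse tumors. They were chosen by symbol as glucose transporters, glycolytic enzymes and their regulators, and known targets or parts of the hypoxia pathway, out of 32285 genes counted. They comprised 2 glucose transporters, 11 genes of the upper pathway, 6 of the lower pathway, 5 of lactate and pyruvate handling and 8 of the hypoxia response. The symbol Aldoa belonged to 2 gene identifiers, of which ENSMUSG00000030695 held all Aldoa counts of these cells.

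The cells were live CD3+ T cells sorted from subcutaneous tumors in wild-type C57BL/6J males, which were 6 weeks old at injection. Both groups received 105K cells, which derive from a mouse kidney tumor and lack Tsc2, a brake on the kinase complex mTORC1. Cells of the control group (sh-NC) expressed a hairpin RNA with no target, and cells of the knockdown group (sh-B7-H3 (1)) expressed 1 hairpin directed at Cd276, which encodes the checkpoint molecule B7-H3. The hairpin acts in the tumor cells, not in the T cells counted here. The labels state that cells from 80 tumors went into the pool of each group, loaded in duplicate. The study's text is not uniform on whether the 2 libraries of a group, called control 1 and 2 and knockdown 1 and 2, were loadings of 1 pool or separate pools of tumors. Every SD here, and every p-value of knockdown against control within a class, measures the spread between these 2 libraries, which may be technical. The p-values between classes or lineages, and of the interaction, measure how class differences vary between the libraries of a group. That spread may be technical too.

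Glycolysis splits glucose into pyruvate in the cytosol and yields ATP without oxygen. Lactate dehydrogenase then turns pyruvate into lactate, which monocarboxylate transporters carry out of the cell. Inside the mitochondria pyruvate dehydrogenase, held back by the kinase Pdk1, turns pyruvate into acetyl-CoA instead. The transcription factor HIF-1, whose oxygen-labile subunit is encoded by Hif1a, raises many glycolytic genes when oxygen is low, and prolyl hydroxylases such as Egln1 and Egln3 mark that subunit for decay. Activated T cells also raise glycolysis through receptor and mTORC1 signals when oxygen is present.

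Because HIF-1 binds DNA at the short core ACGTG or GCGTG, the 250 bases before the RefSeq start of 4 members on which the results turn are shown for context, from GRCm38.p6, 5′ to 3′ on the strand of the gene, with every match to a core on either strand in capitals. They are Ldha (chr7:46845554-46845803, plus strand), Pgk1 (chrX:106186850-106187099, plus strand) and Gapdh (chr6:125165774-125166023, minus strand), which were lower in knockdown T cells with much Ccl5, and Pdk1 (chr2:71872974-71873223, plus strand), the member that differed most by Ccl5 in Cd4 cells.
Ldha: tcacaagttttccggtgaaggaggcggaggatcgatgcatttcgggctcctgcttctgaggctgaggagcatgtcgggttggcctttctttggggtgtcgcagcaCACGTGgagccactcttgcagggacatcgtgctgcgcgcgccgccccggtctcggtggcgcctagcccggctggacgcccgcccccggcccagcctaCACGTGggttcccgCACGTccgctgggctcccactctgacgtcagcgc
Pgk1: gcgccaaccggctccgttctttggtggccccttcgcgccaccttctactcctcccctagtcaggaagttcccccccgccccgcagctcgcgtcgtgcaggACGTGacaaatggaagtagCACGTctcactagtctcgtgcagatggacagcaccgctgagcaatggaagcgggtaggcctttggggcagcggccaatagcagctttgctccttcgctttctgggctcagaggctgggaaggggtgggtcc
Gapdh: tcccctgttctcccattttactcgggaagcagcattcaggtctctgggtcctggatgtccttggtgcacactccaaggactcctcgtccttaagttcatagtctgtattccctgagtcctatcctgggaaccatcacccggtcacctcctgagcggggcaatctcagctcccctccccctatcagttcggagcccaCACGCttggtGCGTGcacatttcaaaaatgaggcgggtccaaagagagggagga
Pdk1: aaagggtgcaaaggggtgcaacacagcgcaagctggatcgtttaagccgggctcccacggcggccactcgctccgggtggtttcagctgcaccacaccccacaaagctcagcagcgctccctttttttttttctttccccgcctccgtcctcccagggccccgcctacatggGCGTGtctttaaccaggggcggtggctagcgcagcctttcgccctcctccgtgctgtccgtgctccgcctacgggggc
The Ldha window held 5 matches, all ACGTG, the Pgk1 window 2, the Gapdh window 2 and the Pdk1 window 1, where a palindrome CACGTG counts on both strands. Of the 30 members with a RefSeq promoter, 23 (76.7%) held at least 1 core, against 38.6% of the 27025 genes in the table, and the median GC content was 61.0% in the members and 52.0% in all genes. A core was present in 5 of the 8 members that were lower in knockdown Cd4 cells with much Ccl5 and in 11 of the 14 others tested there that have an entry. A match is only a match of letters and was not tested for binding.

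Cells were called from RNA. Cd8 cells had at least 3 unique molecular identifiers (UMIs, counted RNA molecules) of Cd8a and Cd8b1 and none of Cd4 or Foxp3, Cd4 cells at least 1 Cd4 UMI, at most 2 of Cd8 and none of Foxp3, and Foxp3 cells at least 1 Foxp3 UMI and at most 2 of Cd8. The regulatory T cell markers Foxp3, Il2ra and Ikzf2 summed to 1310 to 1730 CPM (before TMM scaling) in Foxp3 cells with little Ccl5. In the matching Cd4 cells they summed to 36.3 to 93.9. The call used Foxp3, so part of this gap was set by the call, and Il2ra and Ikzf2 are not given alone. Each lineage was split at 20 UMIs of Ccl5, a chemokine of effector T cells. The cells with at least 20, called Ccl5-high, were 7.33 and 8.99% of control Cd4 cells and 48.0 and 47.4% of knockdown Cd4 cells. For Cd8 cells these shares were 13.8 and 17.6% against 64.8 and 60.9%. The classes held 154 to 2710 cells per library, except Ccl5-high Foxp3 cells, which numbered 18, 17, 31 and 36 and were given no test. The 4 libraries held 79224898 to 132820909 RNA UMIs in 7030 to 12112 called barcodes, and pairs of libraries shared 17 to 35 barcodes. Levels below are UMIs summed over the cells of a class and library and divided by the TMM-scaled library total (scaled CPM). They set 1 gene against itself and are not corrected for transcript length.

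**Figure D1:**
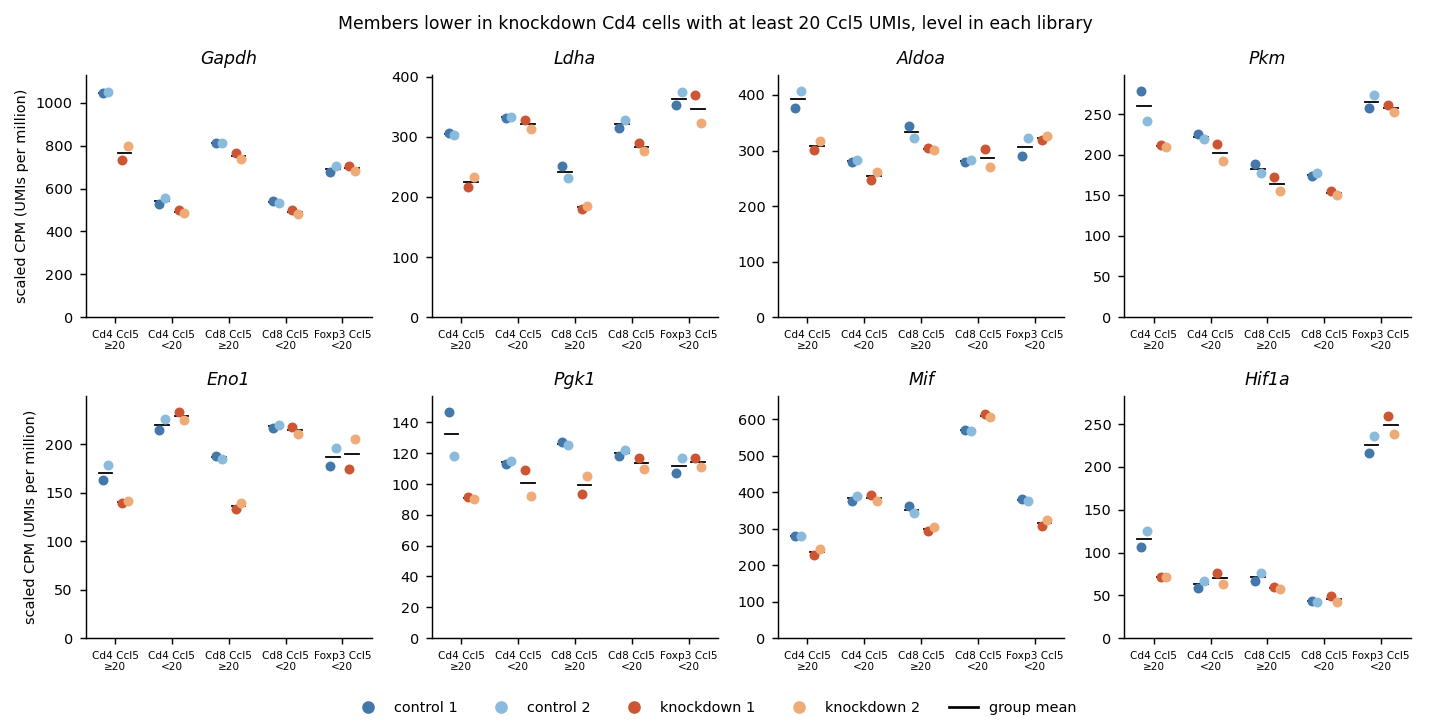
Each panel plots 1 gene as scaled CPM (linear axis from 0) in 5 cell classes, with 1 point per library in blue for control and orange for knockdown and a bar at the mean of the 2 libraries. In Cd4 cells with at least 20 Ccl5 UMIs both knockdown points of Gapdh (732 and 797) lie under both control points (1046 and 1050), while in Foxp3 cells the groups overlap.

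The first question was whether these genes differed in T cells of knockdown tumors when cells of the same lineage and Ccl5 class were compared. In Ccl5-high Cd4 cells 8 members were lower in the knockdown libraries and none was higher at an adjusted p under 0.05 (edgeR's quasi-likelihood test, Benjamini-Hochberg adjusted over all genes tested). They were 6 glycolytic genes (Gapdh, Ldha, Aldoa, Pkm, Eno1 and Pgk1), Hif1a and Mif. Of the 32 members 24 passed the count filter there, and the share of all 9169 genes tested that were lower by this rule was 2.53%, and higher 2.09%. With a fold of at least 1.5 in addition, 1 member (Hif1a) was called, against 2.02% of all genes. The median log2 fold change was -0.25 over the 24 members and 0.00 over all genes.

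Gapdh (glyceraldehyde-3-phosphate dehydrogenase, the first step of the lower pathway) stood at 1046 and 1050 scaled CPM in the control Ccl5-high Cd4 cells and at 732 and 797 in the knockdown ones. The means were 1048 ± 2.38 and 764 ± 46.0 CPM (SD, n = 2 each), and the groups did not overlap. The log2 fold change was -0.49 ± 0.0594 (SE), a 1.40-fold difference, with an adjusted p of 3.8e-07. Ldha, the lactate dehydrogenase subunit that favours making lactate, had 307 and 304 CPM against 217 and 233. All knockdown values were again under all control values, and its log2 fold change was -0.47 ± 0.0723 (adjusted p = 2.79e-05). Hif1a fell most among the 8, from 107 and 125 to 71.1 and 71.1 CPM, a log2 fold change of -0.74 ± 0.11 (adjusted p = 1.73e-05).

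The other enzymes that passed the test in this class also had knockdown levels under both control levels. Aldoa, the aldolase of the upper pathway, had 376 and 408 CPM in control and 301 and 317 in knockdown cells (log2 fold change -0.37, adjusted p = 0.000405). Pgk1, which makes the first ATP of the lower pathway, had 147 and 118 against 91.5 and 90.1 (-0.58, adjusted p = 0.000337). The 2 control libraries of Pgk1 thus differed from each other by about as much as control 2 differed from the knockdown libraries. Pkm, pyruvate kinase, had 278 and 242 against 212 and 209 CPM (-0.34, adjusted p = 0.00581), and Eno1, enolase, 163 and 178 against 139 and 141 (-0.32, adjusted p = 0.0236). Mif, a cytokine gene that HIF-1 can raise, had 281 and 280 against 229 and 244 CPM (-0.28, adjusted p = 0.0184).

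An enzyme sum was taken over 17 members, the upper and lower pathway genes without Pfkfb3 and Pfkfb4 but with Ldha and Ldhb. In Ccl5-high Cd4 cells it was 2838 and 2836 CPM in control and 2159 and 2305 in knockdown libraries. That is a change of -21.3% in the means. Without Gapdh the change was -18.0%. In Ccl5-high Cd8 cells the sum was 2404 and 2344 against 2109 and 2072 CPM, a change of -11.9%. It was lower in knockdown libraries of the cells with under 20 Ccl5 UMIs too, by smaller shares, with 2075 and 2125 against 2010 and 1943 CPM in Cd4 cells (-5.87%) and 2059 and 2075 against 1982 and 1893 in Cd8 cells (-6.26%). The libraries of the groups did not overlap in any of these 4 classes, and the sums carry no test. The remaining 16 tested members did not pass in Ccl5-high Cd4 cells. Among them Ldhb, the lactate dehydrogenase subunit that favours using lactate, had 24.9 and 25.3 CPM in control and 29.5 and 30.8 in knockdown cells, the highest log2 fold change of the tested members at 0.24. Hk1, a hexokinase of the first step, had 39.6 ± 0.214 in control and 45.9 ± 2.06 CPM in knockdown cells (SD, n = 2 each). Both thus had their higher levels in the knockdown libraries, without overlap. Gpi1, Tpi1, Egln1, Pfkp, Ankrd37 and Slc2a1 had their lower levels there, also without overlap, while the groups overlapped for Pgam1 and Pfkl. With n = 2 each, groups can lie apart without a difference, and the share of all genes that do is not given. Neither glucose transporter passed, with Slc2a1 at 9.94 and 14.2 against 7.72 and 7.49 CPM and Slc2a3 at 11.6 and 9.47 against 10.6 and 12.3. The members outside the test in this class were Hk2, Pfkm, Pfkfb4, Aldoc, Slc16a1, Slc16a3, Egln3 and Vegfa, all with low counts.

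Which of the 8 passed depended on single libraries or on the setting for some genes. The shares of all genes that passed in the refits are not given, so the refit counts cannot be set against a background. Gapdh, Ldha, Aldoa and Hif1a passed in all 16 refits with another setting or without 1 library. Pkm missed in 4 of the 16, Eno1 in 7 and Mif in 8, each with DESeq2 among them. Pgk1 passed in 15 and missed without control 1 (-0.42, adjusted p = 0.0528). Pkm missed without control 1 (adjusted p = 0.183) and without knockdown 2 (0.143), Eno1 without control 2 (0.249), knockdown 1 (0.183) or knockdown 2 (0.225), and Mif without any 1 library (0.0586 to 0.283). The count fell to 5 without control 1 or without knockdown 2, and DESeq2 called 5.

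Several other measures moved with the groups in this class. Ccl5 itself, the gene of the split, had 20534 and 20338 CPM in control and 15628 and 15799 in knockdown cells. The other 6 effector markers (Nkg7, Gzmk, Gzmb, Ifng, Lag3 and Pdcd1) summed to 6727 and 6377 CPM in control and 6858 and 6750 in knockdown cells, with no such gap. The resting markers Ccr7, Tcf7 and Il7r summed to 88.6 and 90.0 CPM in control and 44.4 and 57.9 in knockdown cells. The 9 myeloid markers summed to 10.8 and 14.2 CPM in control libraries, where 5 and 7 of 9 were detected, and to 24.2 and 23.3 in knockdown libraries, where all 9 were detected, and Adgre1 was at 0 in both control libraries. The median mitochondrial share was 2.22 and 2.27% against 2.95 and 2.98% of UMIs. The share of cells scored as doublets by their likeness to simulated ones was 19.5 and 20.6% in control and 10.6 and 8.60% in knockdown libraries, and 23.5 and 20.8% against 10.5 and 9.36% in Ccl5-high Cd8 cells. Cycling cells were 7.14 and 5.81% in control and 8.28 and 7.11% in knockdown libraries, and 8 members passed without them. In empty droplets, which carry free RNA, Gapdh had 310 and 324 CPM in control and 406 and 382 in knockdown libraries, Ldha 308 and 354 against 313 and 268, and Mif 374 and 396 against 307 and 388, so the order of the groups there differed between genes. The part of these measures in the result was not tested.

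**Figure D2:**
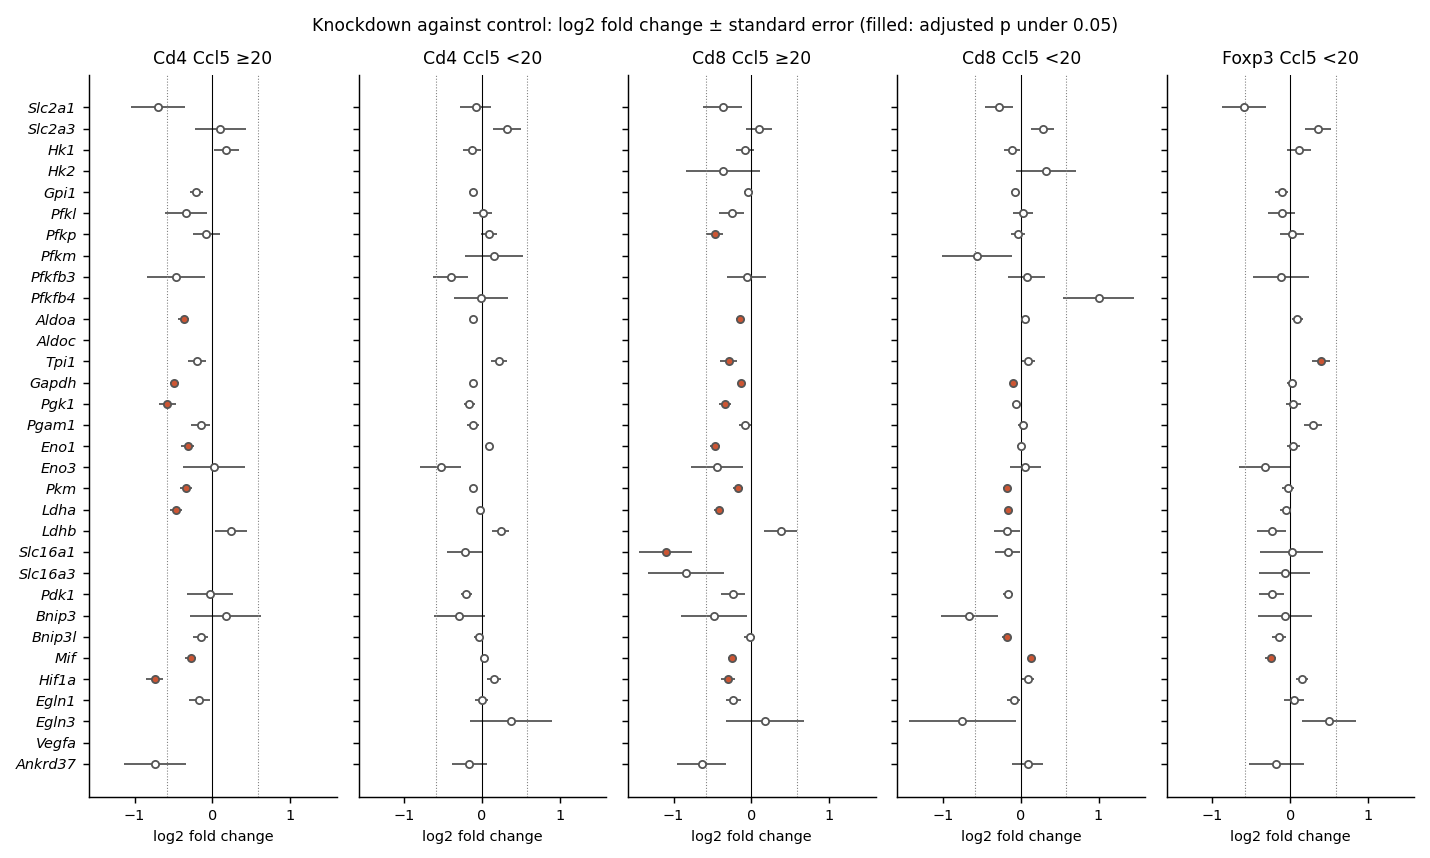
The panels plot the log2 fold change of knockdown over control with its standard error for each tested member in 5 cell classes, filled where the adjusted p was under 0.05, with dotted lines at a fold of 1.5. Filled points lie left of 0 in both Ccl5-high panels, 8 in Cd4 and 11 in Cd8 cells, and none is filled in Ccl5-low Cd4 cells.

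In Ccl5-high Cd8 cells 11 of 28 tested members were lower in the knockdown libraries and none was higher, where 7.68% of 9926 genes were lower and 7.17% higher. They were Eno1, Ldha, Pgk1, Mif, Pfkp, Aldoa, Gapdh, Pkm, Tpi1, Hif1a and Slc16a1. Only Slc16a1 also passed the fold of 1.5, where 5.48% of all genes did in either direction. The median log2 fold change was -0.25 over the members and 0.00 over all genes. This comparison used the same libraries as the one in Cd4 cells, though other cells.

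The sizes were not the same as in Cd4 cells, though the knockdown effect was not tested between the lineages. Eno1 had 188 and 185 CPM in control and 133 and 139 in knockdown Ccl5-high Cd8 cells, a log2 fold change of -0.47 ± 0.0636 (adjusted p = 1.2e-11). Ldha had 252 and 232 against 180 and 185 CPM (-0.42 ± 0.0581, adjusted p = 4.17e-11). Both groups were well apart for these genes, which passed in all 16 refits. Gapdh differed little, with 815 and 813 against 766 and 738 CPM (-0.13, adjusted p = 0.0195), and missed in 6 of 16 refits.

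Pfkp, a phosphofructokinase and so an enzyme of the committing step, had 59.0 and 60.4 CPM in control and 45.0 and 42.3 in knockdown Ccl5-high Cd8 cells (-0.47 ± 0.107, adjusted p = 0.000189). In Ccl5-high Cd4 cells the same gene had 37.3 and 38.7 against 37.0 and 36.3, with no change passing the test. Slc16a1, the lactate and pyruvate carrier MCT1, had 7.14 and 6.42 CPM against 2.64 and 3.59 (-1.10 ± 0.34, adjusted p = 0.0119). That call rested on 14 to 25 UMIs per library and was lost without any 1 library (adjusted p 0.0577 to 0.177) and with DESeq2 (0.352).

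In Ccl5-high Cd8 cells Aldoa, Pkm and Tpi1 each missed in 9 of 16 refits and Hif1a in 5, each with DESeq2 among them. Single libraries again decided part of the count. The shares of all genes that passed in these refits are not given either, so their counts have no background. It was 6 without control 1, 7 without control 2 and 6 without knockdown 2, and DESeq2 called 3. Hif1a was lost without control 2 (adjusted p = 0.414) and knockdown 2 (0.178), Tpi1 without control 1 (0.516) and knockdown 1 (0.397), and Gapdh, Aldoa and Pkm without control 1 (0.125, 0.386 and 0.38) or knockdown 2 (0.253, 0.179 and 0.595). Gapdh and Pkm were also lost without control 2 (0.0943 and 0.0598) and Aldoa without knockdown 1 (0.0783). Without the gene limit Gapdh stood at -0.03 (adjusted p = 0.65) and Hif1a at -0.15 (0.189), with the doublet score Tpi1 at -0.12 (0.632), and with Ccl5 counted per 5000 UMIs Mif at -0.12 (0.173). Ccl5 had 15415 and 16064 CPM in control and 21339 and 21553 in knockdown Ccl5-high Cd8 cells, and the other 6 effector markers 5012 and 5035 against 6040 and 5916. The 3 resting markers summed to 277 and 250 CPM in control and to 105 and 115 in knockdown cells, a gap without overlap. The myeloid markers summed to 12.7 and 10.5 CPM in control and to 32.4 and 34.3 in knockdown cells, and the part of these levels in the result was not tested.

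In cells with under 20 Ccl5 UMIs, called Ccl5-low, no member passed in Cd4 cells, of 28 tested, where 6.62% of 10716 genes were higher and 5.03% lower. At an unadjusted p under 0.05 there were 2 higher and 6 lower members, where 1324 of the 10716 genes were higher and 1208 lower. DESeq2 called 0 members. Gapdh had 526 and 555 CPM in control and 499 and 486 in knockdown cells (log2 fold change -0.11 ± 0.0376, adjusted p = 0.0741), and Hif1a 59.1 and 67.0 against 76.5 and 62.9 (0.16 ± 0.0906, adjusted p = 0.3). Effector, resting and myeloid marker levels moved with the groups in both Ccl5-low classes, as given further below, and their part was not tested. In Ccl5-low Cd8 cells 1 member was higher and 4 were lower of 29 tested, against 5.61 and 4.82% of 10979 genes. The changes were small, with Mif higher by 0.13 on the log2 scale (572 and 567 to 614 and 606 CPM) and Ldha, Pkm, Bnip3l and Gapdh lower by 0.10 to 0.18. Without control 2 none of these 5 passed, without knockdown 2 only Mif did, without control 1 the count was 3, and DESeq2 called 0.

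In Ccl5-low Foxp3 cells 2 of 27 tested members passed, Tpi1 higher (63.2 and 68.1 against 92.7 and 79.2 CPM, log2 fold change 0.40, adjusted p = 0.032) and Mif lower (382 and 375 against 307 and 324, -0.25, adjusted p = 0.0205), where 3.68% of 9139 genes were higher and 3.13% lower. Tpi1, triosephosphate isomerase, was lost without control 1 (adjusted p = 0.206) or knockdown 1 (0.368). Mif was lost without control 1 (0.172), control 2 (0.0527) or knockdown 1 (0.193), and DESeq2 called 0 members. Neither passed a fold of 1.5, nor did any member in the Ccl5-low Cd4 and Cd8 cells, where the shares of all genes past that rule in either direction were 2.94% for Foxp3, 4.39% for Cd4 and 2.75% for Cd8 cells. The enzyme sum was 2401 ± 103 CPM in control and 2415 ± 43.6 in knockdown Foxp3 cells (SD, n = 2 each), a difference within the spread. Over the 16 refits Tpi1 missed in 9 and Mif in 7. Marker levels moved with the groups in these Foxp3 cells too. The myeloid markers summed to 12.4 and 14.8 CPM in control and 33.3 and 28.8 in knockdown libraries, and Ccl5 had 189 and 195 against 444 and 563. The 3 resting markers had 772 and 770 against 570 and 625 CPM. The regulatory markers had 1310 and 1433 against 1730 and 1695 CPM before TMM scaling. Their part in the changes of Tpi1 and Mif was not tested.

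The second question was whether the knockdown difference itself depended on the Ccl5 class, tested as an interaction within 1 fit of all classes. In Cd4 cells 5 of 31 tested members had a lower knockdown effect in the Ccl5-high class, and none a higher one, where 3.15% of 10940 genes were lower and 0.868% higher. They were Hif1a (-0.88 ± 0.135, adjusted p = 2.42e-06), Ldha (-0.43 ± 0.0862, 0.000424), Eno1 (-0.39 ± 0.101, 0.0105), Gapdh (-0.36 ± 0.0625, 3.03e-05) and Mif (-0.29 ± 0.0821, 0.026), all log2 differences. Hif1a also passed a fold of 1.5, which 2.85% of all genes did in either direction. The count fell to 3 without control 1 or without knockdown 1. Hif1a, Ldha and Gapdh passed in all 16 refits, Eno1 missed without control 1, control 2 or knockdown 1 (adjusted p 0.0729 to 0.137), and Mif missed in 7 refits, among them those without the gene limit (-0.22, 0.266) and without control 1 (-0.25, 0.274).

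In Cd8 cells 3 of 31 members passed, all lower in the Ccl5-high class, against 2.86% of genes lower and 0.521% higher. They were Eno1 (-0.45 ± 0.0787, adjusted p = 4.09e-05), Mif (-0.36 ± 0.0615, 2.42e-05) and Ldha (-0.25 ± 0.0749, 0.048). None passed a fold of 1.5, which 1.99% of all genes did. The count was 2 without control 1, knockdown 1 or knockdown 2 and 3 without control 2. Ldha missed in 10 of 16 refits, among them DESeq2 (-0.27, adjusted p = 0.177), total UMI scaling (-0.20, 0.139) and the one without control 1 (-0.15, 0.627). Mif missed with Ccl5 counted per 5000 UMIs (-0.22, 0.0689), and Eno1 passed in all 16.

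The third question was how these genes differed between Ccl5-high and Ccl5-low cells of the same libraries. In Cd4 cells 6 of 31 tested members were called higher and 2 lower in Ccl5-high cells (adjusted p under 0.05 and a fold of at least 1.5, library as a block), while 17.9% of 10940 genes were higher and 17.8% lower by that rule. In Cd8 cells 4 were called higher and 6 lower, against 16.4 and 14.5%. These splits depend on the scaling. Scaling by total UMIs moves the median of all genes by 0.30 in Cd4 and 0.32 in Cd8 cells. It gives 11 members higher and 2 lower in Cd4 cells and 10 higher and 2 lower in Cd8 cells. The shares of all genes called under that scaling are not given, so these counts cannot be set against a background. Gpi1, Hk1 and Hif1a then join the higher members in both lineages, Aldoa and Bnip3 in Cd4 cells and Tpi1, Slc2a3 and Pfkp in Cd8 cells. Mif, Eno3, Ankrd37 and Pfkfb4 leave the lower members of Cd8 cells. Pdk1 is called lower in both lineages under both scalings. Slc16a1 is as well, but its call in Cd4 cells is not read, since it reached the count filter in the Ccl5-low class alone. On the TMM scale the medians were 0.16 and 0.06 on the log2 scale, against -0.01 and 0.00 over all genes. The count filter of this fit looks at all classes at once. A member that passes it in the class where it is high and fails it, taken alone, in the class where it is low had to differ between them. Its UMIs are given below without a fold. The counts above include such calls, Slc16a1 in Cd4 cells and Slc16a3 and Pfkfb4 in Cd8 cells.

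Pdk1, the kinase that holds back pyruvate dehydrogenase, had the largest difference of the members in Cd4 cells. It had 14.1, 13.4, 11.2 and 16.1 CPM in the Ccl5-high Cd4 cells of control 1, control 2, knockdown 1 and knockdown 2, and 110, 98.7, 84.1 and 93.8 in the Ccl5-low ones. The log2 fold change was -2.79 ± 0.102 (adjusted p = 6.95e-33). In Cd8 cells Pdk1 had 25.3, 24.8, 20.0 and 22.8 CPM against 91.0, 88.6, 77.3 and 79.3 (-1.85 ± 0.0706, adjusted p = 5.62e-32). The classes did not overlap in any library, and the level in empty droplets was 104 and 119 CPM in control and 71.6 and 64.3 in knockdown libraries, in CPM without TMM scaling, above every Ccl5-high value. Without the gene limit the log2 fold changes of Pdk1 were -2.16 in Cd4 and -1.21 in Cd8 cells, folds smaller by over 1.5 times, and its knockdown change in Ccl5-high Cd8 cells, which did not pass with the limit (-0.23, adjusted p = 0.366), was called (-0.66, 2.12e-06).

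Of the 2 monocarboxylate carriers only Slc16a1 in Cd8 cells reached the count filter in both Ccl5 classes. Slc16a1 had 3.31, 1.58, 0.798 and 1.76 CPM in Ccl5-high Cd4 cells, on 4, 2, 3 and 8 UMIs, and 7.56, 7.38, 5.20 and 7.13 in Ccl5-low ones, on 104, 87, 17 and 30. In Cd4 cells it reached the count filter in the Ccl5-low class alone. Slc16a3, the lactate exporter MCT4, had 3.31, 2.37, 4.52 and 3.08 CPM against 1.16, 0.764, 0.918 and 1.19 (1.67 ± 0.492, adjusted p = 0.00305), on 3 to 17 UMIs per library and class, and did not reach the filter in either class taken alone. With a Ccl5 threshold of 10 UMIs it stood at 2.36. In Cd8 cells Slc16a1 passed the filter in both classes, with a log2 fold change of -1.61 ± 0.167 (adjusted p = 8.44e-13), and Slc16a3 in the Ccl5-high class alone, with 13, 6, 13 and 7 UMIs there against 6, 5, 5 and 1. The share of Slc16a1 in the UMIs of both carriers was 98.2, 98.0, 90.2 and 98.3% in Ccl5-low and 62.9, 78.6, 51.9 and 78.1% in Ccl5-high Cd8 cells.

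Among the enzymes Gapdh was higher in Ccl5-high cells of both lineages, with a log2 fold change of 0.81 ± 0.0314 in Cd4 cells (adjusted p = 1.09e-31) and 0.61 ± 0.0287 in Cd8 cells (2.4e-27). Tpi1 was called in Cd4 cells under both scalings, at 87.8, 92.3, 75.8 and 83.9 CPM against 31.9, 32.9, 36.7 and 37.1 (1.31 ± 0.0839, adjusted p = 3.97e-21), and stood at 0.27 ± 0.0731 in Cd8 cells, where total UMI scaling calls it as well (0.59, adjusted p = 3.92e-10). Pgam1, a mutase of the lower pathway, was called in Cd4 cells (0.59 ± 0.0715) and had nearly equal levels in Cd8 cells, 85.7, 91.6, 84.0 and 85.4 CPM against 82.6, 83.8, 83.8 and 83.3. The difference between the lineages was not tested for these genes. Aldoa and Gpi1 passed the adjusted p in both lineages below the fold of 1.5, at 0.39 and 0.35 in Cd4 and 0.17 and 0.32 in Cd8 cells. By the adjusted p alone 3062 of 10940 genes were higher and 3112 lower in Cd4 cells, and 3140 and 3200 in Cd8 cells.

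Eno1 and Ldha were lower, not higher, in Ccl5-high cells on the TMM scale. Eno1 had a log2 fold change of -0.52 in Cd4 and -0.44 in Cd8 cells, and Ldha -0.30 and -0.52. Mif was lower by 0.56 in Cd4 cells and was called in Cd8 cells at -0.86 ± 0.0304 (adjusted p = 1.03e-33), with 361, 344, 294 and 305 CPM against 572, 567, 614 and 606. With total UMI scaling Ldha in Cd4 cells stands at 0.01 (adjusted p = 0.883), so its direction there depends on the scaling. Hif1a was higher in Ccl5-high cells of both lineages, by 0.48 ± 0.0674 and 0.54 ± 0.063 (adjusted p = 1.28e-08 and 4.87e-11), under the fold of 1.5.

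The other members called by Ccl5 class had low counts. In Cd4 cells they were Hk2 (1.34, adjusted p = 0.0104), the hexokinase that activated cells induce, and Eno3 (0.73, 0.0169). Hk2 did not reach the count filter in either Cd4 class taken alone. Its control means were 3.24 ± 0.111 CPM in Ccl5-high and 0.697 ± 0.146 in Ccl5-low Cd4 cells (SD, n = 2 each). In knockdown libraries they were 3.07 ± 0.921 and 2.28 ± 1.54. The interaction of Hk2 was -1.73 and did not pass. In Cd8 cells they were Pfkfb3 (0.62, 0.00128) and Egln3 (1.33, 0.00754), which were higher, and Eno3 (-0.78, 0.00124), Ankrd37 (-0.60, 0.00248) and Pfkfb4, which were lower. Pfkfb4 had 4, 3, 3 and 4 UMIs in Ccl5-high and 21, 23, 4 and 14 in Ccl5-low Cd8 cells, where alone it reached the filter. Without control 1 the Cd4 count was 5, and Hk2 (adjusted p = 0.0505) and Eno3 (0.0518) were among the lost. They were lost without control 2 as well (0.0779 and 0.082). Eno3 in Cd4 cells was also lost without knockdown 2 (0.256). Without control 2 the Cd8 count was 6, and Pfkfb4 (0.242) and Egln3 (0.136) were among the lost. Without the gene limit Pfkfb3 stood at 0.29 (adjusted p = 0.0919) and Hk2 at 0.70 (0.123), and with Ccl5 counted per 5000 UMIs Eno3 in Cd4 cells at 0.37 (0.242). Pfkfb4 was lost without any 1 library (0.0536 to 0.466), Egln3 also without knockdown 1 (0.0524), and Ankrd37 without knockdown 1 (0.102).

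**Figure D3:**
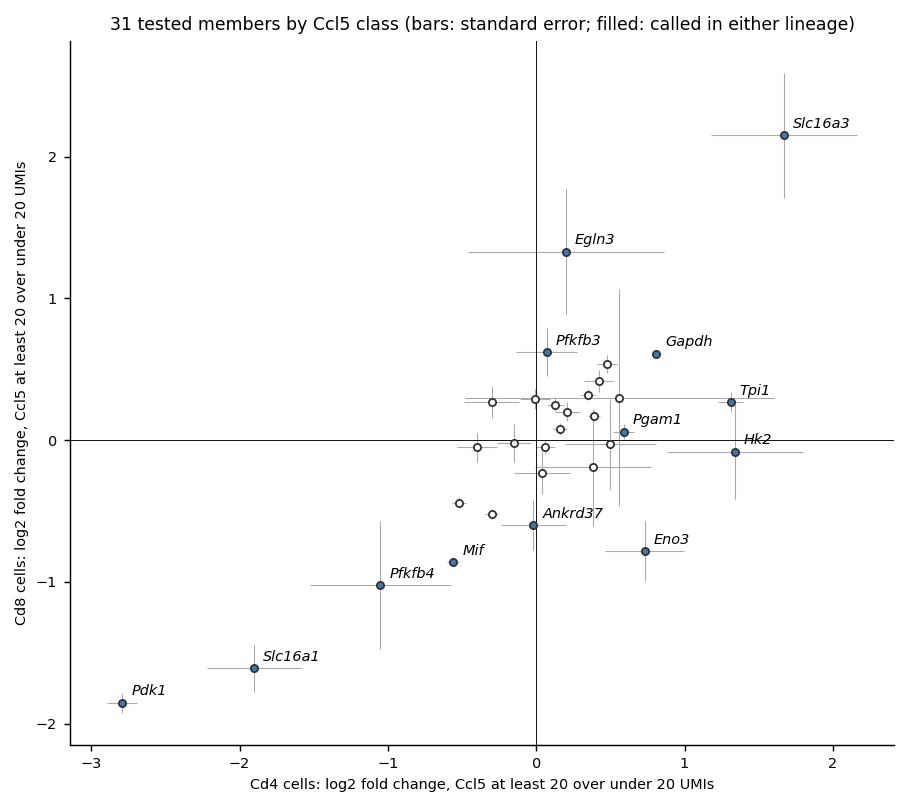
Each point is 1 of 31 tested members, with its log2 fold change between Ccl5-high and Ccl5-low cells in Cd4 cells on the x axis and in Cd8 cells on the y axis, standard errors as bars, filled and named where it was called in either lineage. The sizes of Slc16a1 in Cd4 cells and of Slc16a3 and Pfkfb4 in Cd8 cells are not read, since 1 of the 2 classes was under the count filter. Pdk1 and Slc16a1 lie at the lower left, Slc16a3 at the upper right, and Eno3 is higher in Cd4 but lower in Cd8 cells.

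The split at 20 UMIs was opened into 5 ranges of Ccl5 to see where the levels turned, with no test and with a TMM scaling of its own. Cd4 cells with 5 to 19 UMIs were few, 20, 11, 46 and 79 per library. Pdk1 in Cd4 cells stood at 95.1 to 108 CPM with no Ccl5 UMI and at 77.3 to 104 with 1 to 4, then at 9.90 to 16.3 with 20 to 99 and 10.5 to 16.9 with 100 or more. It was thus low across the whole upper range in all 4 libraries. Gapdh in Cd4 cells with 20 to 99 UMIs had 909 and 908 CPM in control and 669 and 705 in knockdown libraries, and with 100 or more 1049 and 1036 against 714 and 775. The gap between the groups was present in both upper ranges.

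**Figure D4:**
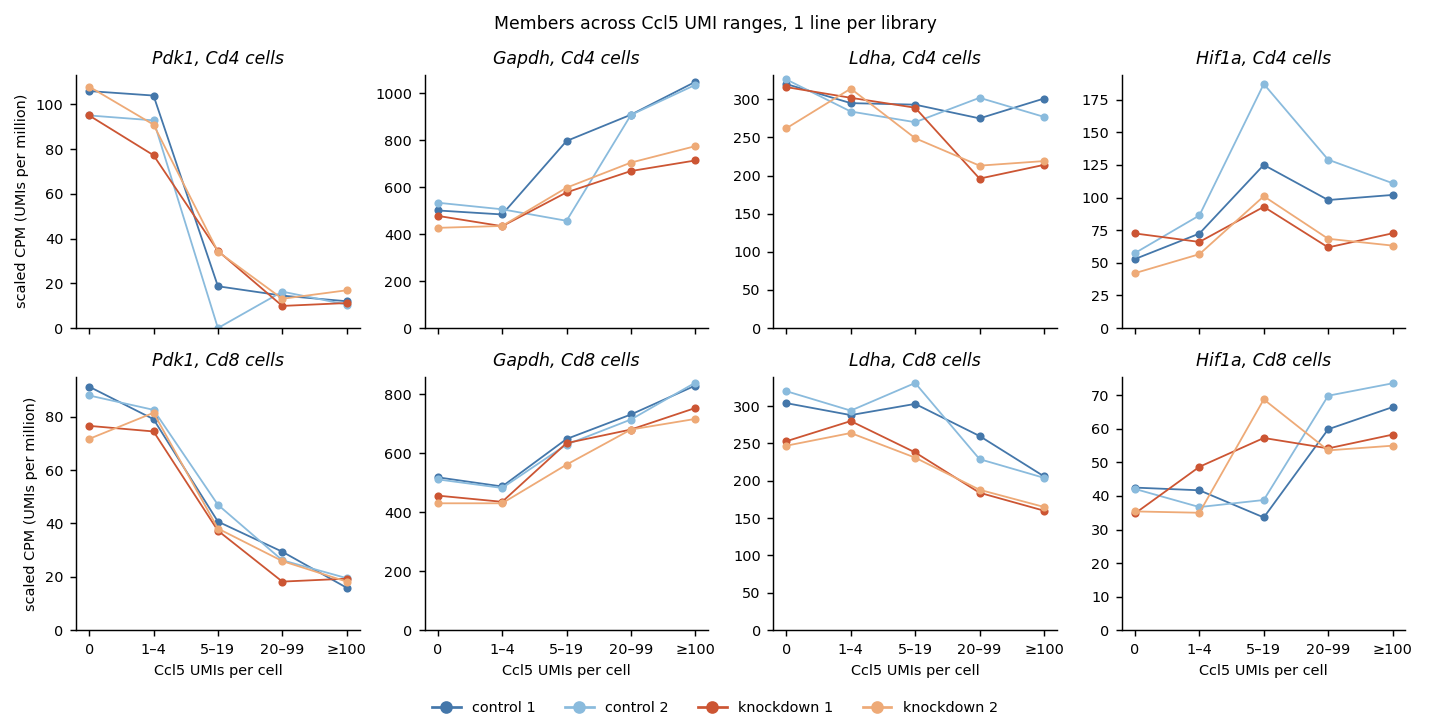
Scaled CPM (linear axis from 0) of 4 members in Cd4 cells (upper row) and Cd8 cells (lower row) is plotted against the range of Ccl5 UMIs per cell, with 1 line per library. Pdk1 drops between 1 to 4 and 20 to 99 UMIs in all libraries, and Gapdh in Cd4 cells is lower in the orange knockdown lines than in the blue control lines from 20 UMIs on.

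Over all Cd4 cells without the split, some members changed order between the groups and others did not. Gapdh had 541 and 573 scaled CPM in control and 587 and 605 in knockdown Cd4 cells, so the knockdown libraries were the higher ones, unlike in either Ccl5 class. Pdk1 had 97.5 and 85.8 against 42.4 and 50.0. Its levels within the Ccl5-high class overlapped, and in the Ccl5-low class they were 110 and 98.7 against 84.1 and 93.8 CPM without overlap (-0.20, adjusted p = 0.0865), a difference that passed with total UMI scaling (-0.22, 0.0459) and without the gene limit (-0.22, 0.025). Ldha (314 against 254 CPM in the means) and Pgk1 (110 against 89.5) kept the order of the Ccl5-high class. The enzyme sum was 2058 ± 35.0 and 1979 ± 18.1 scaled CPM (SD, n = 2 each), a ratio of 0.961, but 1942 and 2056 CPM without TMM scaling, a ratio of 1.06, so its direction depends on the scaling. These values carry no test.

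The fourth question was how the lineages differed at the same Ccl5 class. Among Ccl5-low cells 9 of 31 members were called higher and 2 lower in Foxp3 than in Cd4 cells, while 12.2% of 10940 genes were higher and 8.8% lower. The median was 0.24 on the log2 scale over the members and -0.03 over all genes. Hif1a had 216, 236, 259 and 238 CPM in the Foxp3 cells of control 1, control 2, knockdown 1 and knockdown 2, and 59.1, 67.0, 76.5 and 62.9 in the Cd4 cells. That is a log2 fold change of 1.86 ± 0.0502 (adjusted p = 2.58e-39), and every Foxp3 value was above every Cd4 value.

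The other genes called higher in Foxp3 cells included a glucose transporter, enzymes and genes of the hypoxia response. Slc2a3, the high-affinity glucose transporter GLUT3, had 29.2, 34.8, 38.2 and 43.0 CPM against 11.1, 13.9, 13.2 and 16.9 (1.40 ± 0.123, adjusted p = 5.04e-15). Slc16a3 had 9.53, 10.3, 12.0 and 6.82 against 1.16, 0.764, 0.918 and 1.19, on 33, 32, 22 and 13 against 16, 9, 3 and 5 UMIs, and passed the count filter in the Foxp3 cells alone. Tpi1 had 63.2, 68.1, 92.7 and 79.2 against 31.9, 32.9, 36.7 and 37.1 (1.13 ± 0.0802, 7.69e-19). Slc2a3 and Tpi1 did not overlap between the lineages, and the call of Slc16a3 is not read. Egln3, the hydroxylase that HIF-1 itself induces, had 7.79, 5.81, 10.9 and 8.39 CPM against 1.82, 0.848, 1.84 and 1.66 (2.39 ± 0.312, adjusted p = 2.81e-09).

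Aldoc, Hk2 (1.22), Eno3 (1.06) and Bnip3 (0.79), a mitophagy gene that HIF-1 induces, were called higher too, and Pdk1 (-1.35 ± 0.0755, adjusted p = 1.84e-23) and Pfkfb4 lower. Aldoc rested on 7 to 9 UMIs per library in Foxp3 cells and 1 to 8 in Cd4 cells, and neither it nor Hk2 reached the filter in either class taken alone. Pfkfb4 had 2, 2, 4 and 1 UMIs in Foxp3 cells and 48, 33, 10 and 13 in Cd4 cells, where alone it reached the filter. Hk2 (adjusted p = 0.157 and 0.749) and Bnip3 (0.165 and 0.209) were lost without control 1 or knockdown 2, Pfkfb4 without knockdown 2 (0.0586) and Eno3 without knockdown 1 (0.28). Hk2 stood at 1.96 without knockdown 1. Eno1 and Mif, lower by 0.24 and 0.13, turned to 0.03 and 0.14 with total UMI scaling, which moves the median of all genes by 0.24. In the few Ccl5-high Foxp3 cells Hif1a had 309, 382, 166 and 241 CPM, above 57.3 to 125 in Ccl5-high Cd4 and Cd8 cells.

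**Figure D5:**
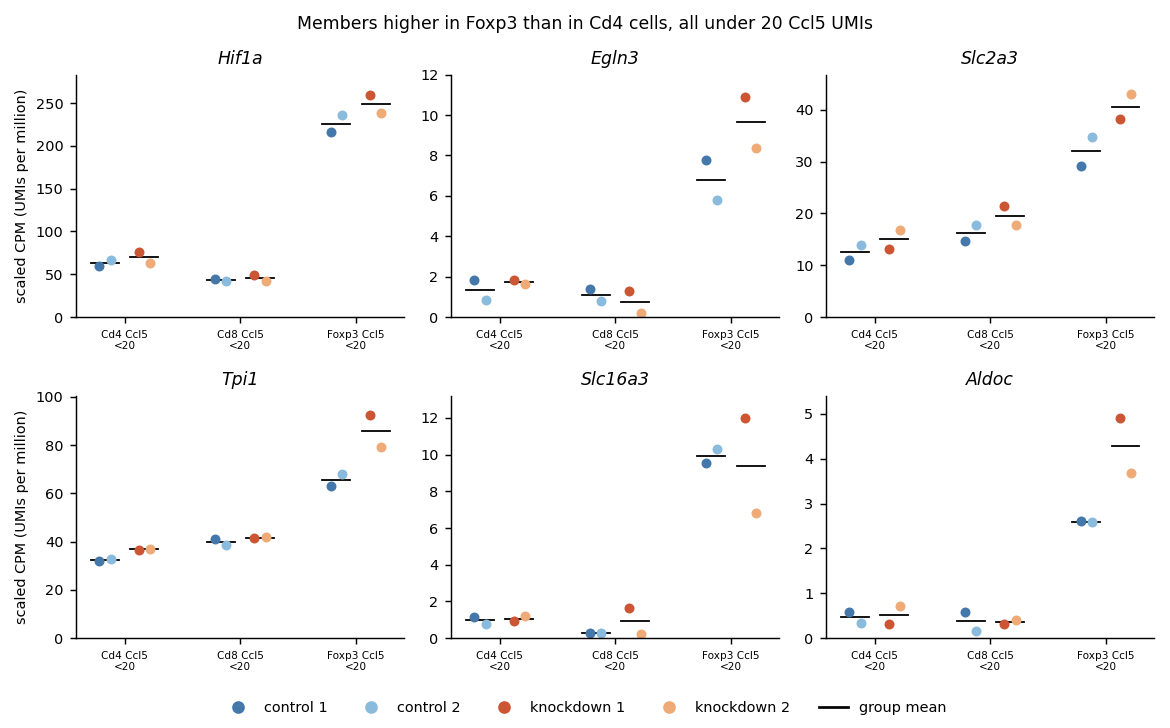
Scaled CPM (linear axis from 0) of 6 members is plotted for Ccl5-low Cd4, Cd8 and Foxp3 cells, with 1 point per library and a bar at each group mean. All 4 Foxp3 points of Hif1a (216 to 259) lie above all Cd4 and Cd8 points.

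Cd8 and Cd4 cells differed in fewer members. Among Ccl5-high cells 3 were called higher and 5 lower in Cd8 cells, against 5.27 and 5.74% of genes, and among Ccl5-low cells 4 higher and 2 lower, against 4.09 and 7.41%. Ldhb was lower in Cd8 cells in both classes, with 12.3, 10.2, 16.0 and 13.8 CPM against 24.9, 25.3, 29.5 and 30.8 in Ccl5-high cells (-1.11 ± 0.149, adjusted p = 1.27e-08) and -1.24 ± 0.0963 in Ccl5-low cells. Slc16a1 was called higher in Cd8 cells among Ccl5-low cells (1.06 ± 0.141, adjusted p = 6.89e-09). Among Ccl5-high cells it had 22, 22, 14 and 25 UMIs in Cd8 and 4, 2, 3 and 8 in Cd4 cells. It reached the filter there in Cd8 cells alone, so its call among Ccl5-high cells is not read. Ldha took 92.5, 92.3, 88.0 and 88.3% of the UMIs of Ldha and Ldhb in Ccl5-high Cd4 cells and 95.3, 95.8, 91.8 and 93.1% in Ccl5-high Cd8 cells.

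Of the other calls in Ccl5-high cells, Slc2a3 (0.93) and Pdk1 (0.74) were higher in Cd8 cells and Tpi1 (-0.80), Bnip3 (-1.18), Eno3 (-0.89) and Pfkm (-1.21) lower. In Ccl5-low cells Mif (0.62), Eno3 (0.62) and Hk2 were higher and Pfkfb4 (-0.94) lower. Pfkm did not reach the filter in either Ccl5-high class taken alone. Hk2 reached it in Ccl5-low Cd8 cells, with 39, 44, 12 and 9 UMIs, and not in Cd4 cells, with 11, 7, 11 and 5. Without knockdown 2 the Ccl5-high count was 5, with Bnip3 (adjusted p = 0.092), Eno3 (0.22) and Pfkm (0.182) lost. Bnip3 was also lost without control 1 (0.556), Eno3 without control 1 (0.0947) or 2 (0.0741), and Pfkm without control 2 (0.804) or knockdown 1 (0.0578). In Ccl5-low cells Hk2 was lost without control 2 (0.14), knockdown 1 (0.0861) or knockdown 2 (0.0968), Pfkfb4 without control 1 (0.132) or knockdown 1 (0.133), and Eno3 without knockdown 1 (0.151). Total UMI scaling moves the median of all genes by -0.16 among Ccl5-high and -0.19 among Ccl5-low cells. The counts are then 2 higher and 7 lower, and 1 higher and 8 lower, and no share of all genes is given for that scaling.

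Of 45 further genes of the same pathways, 27 to 32 were tested in each comparison. Between knockdown and control none was called in Ccl5-high Cd4 cells, where 2.02% of all genes were called in either direction. In Ccl5-high Cd8 cells 1 was called higher and 3 lower (5.48% of all genes), in the Ccl5-low Cd4 and Cd8 classes 1 higher and 1 lower each (4.39 and 2.75%), and in Foxp3 cells 1 lower (2.94%). Ddit4, an inhibitor of mTORC1 that low oxygen and glucocorticoids induce, had 135 and 143 CPM in control and 71.9 and 79.8 in knockdown Ccl5-low Cd4 cells (-0.84 ± 0.0673, adjusted p = 8.93e-09). It was also lower in Ccl5-low and Ccl5-high Cd8 cells (-0.79 and -0.70). Plod2, a collagen lysyl hydroxylase gene that HIF-1 can induce, was called higher in Ccl5-high Cd8 cells, at 0.80. It was also the 1 gene called higher in each of the Ccl5-low Cd4 and Cd8 classes. Those calls are not read and no fold is given. It had 0.218 and 0.848 CPM in control and 1.53 and 2.61 in knockdown Cd4 cells, on 3 and 10 against 5 and 11 UMIs, and 0.343 and 0.226 against 1.30 and 1.87 CPM in Cd8 cells, on 7 and 4 against 4 and 9 UMIs. At such counts it could reach the filter through the knockdown libraries alone. Within the Ccl5-low classes marker levels moved with the groups as well. In Cd4 cells Ccl5 had 36.2 and 36.1 against 324 and 372 CPM, the other 6 effector markers 92.8 and 85.9 against 618 and 588, and the 3 resting markers 1149 and 1142 against 823 and 808. In Cd8 cells Ccl5 had 74.4 and 94.2 against 295 and 352 CPM, the other effector markers 707 and 711 against 957 and 972, and the resting markers 991 and 969 against 736 and 740. The myeloid markers had 6.83 and 7.30 against 23.6 and 23.3 CPM in Ccl5-low Cd4 cells and 8.52 and 7.86 against 27.7 and 21.4 in Cd8 cells. The part of these levels in the changes of Plod2, Ddit4 and the members was not tested. Hilpda, a lipid droplet gene, was lower in Ccl5-high Cd8 cells (16.2 and 19.2 against 12.1 and 10.3 CPM, -0.70, adjusted p = 0.00554). Myc, a factor that drives glycolytic genes on activation, was lower there (-0.76) and in Foxp3 cells (33.5 and 33.9 against 16.9 and 16.3 CPM, -1.01 ± 0.2, adjusted p = 0.000912).

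Between the Ccl5 classes 3 of 32 tested genes of this list were called higher and 6 lower in Cd4 cells, and 3 higher and 4 lower in Cd8 cells, where the shares of all genes by this rule were 17.9 and 17.8% in Cd4 and 16.4 and 14.5% in Cd8 cells. Mxi1 (1.88 and 1.66), an antagonist of Myc, was higher in Ccl5-high cells of both lineages. Plod2 was called higher in both too, but no fold is given, since its Ccl5-low counts were few. In control 1, control 2, knockdown 1 and knockdown 2 it had 17, 11, 54 and 56 UMIs against 3, 10, 5 and 11 in Cd4 cells. In Cd8 cells these were 19, 33, 76 and 96 against 7, 4, 4 and 9. Ddit4 (-1.67 and -0.99), Myc (-1.54 and -1.42) and Pdha1 (-1.15 and -0.65), a subunit of the enzyme that Pdk1 inhibits, were lower in both. Car12, a carbonic anhydrase gene, was called lower in both as well, on 1, 0, 1 and 1 UMIs in the Ccl5-high Cd4 cells of control 1, control 2, knockdown 1 and knockdown 2 against 37, 37, 12 and 9 in the Ccl5-low ones. In Cd8 cells it had 4, 10, 5 and 3 UMIs against 84, 81, 12 and 23. Pdk3 (0.74) was called higher and Txnip (-0.72) lower in Cd4 cells, as was Ndrg1, which had 0, 1, 3 and 8 UMIs in Ccl5-high and 33, 38, 11 and 30 in Ccl5-low Cd4 cells. Car12 and Ndrg1 passed the count filter through the Ccl5-low cells, so no fold is given for them in Cd4 cells. Epas1, which encodes the HIF-2 alpha subunit, was called higher in Cd8 cells on 11, 9, 15 and 19 UMIs against 14, 3, 3 and 3. Its Ccl5-low counts were few, so this call is not read and no fold is given. The counts of calls between Ccl5 classes above include Epas1, Plod2, Car12 and Ndrg1. Between Foxp3 and Cd4 cells 2 of 32 were called higher and 1 lower, against 12.2 and 8.8% of all genes. Between Cd8 and Cd4 cells 1 was called higher and 2 lower among Ccl5-high cells, against 5.27 and 5.74%, and 1 higher and 4 lower among Ccl5-low cells, against 4.09 and 7.41%.

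Vegfa, the angiogenic target of HIF-1, had 0 to 4 UMIs in each class and library and was tested nowhere. Eno1b, a near copy of Eno1, had 0 to 6.37 CPM, so few Eno1 reads can have been assigned to it, and reads that fit both may have been dropped. Bnip3l and Egln1 were tested in each of the 12 comparisons and stayed within a fold of 1.5 there, with Bnip3l at 102 to 202 CPM and Egln1 at 31.5 to 68.8 CPM over all classes and libraries. In the few Ccl5-high Foxp3 cells, which were not tested, Bnip3l had 202 and 197 CPM in control and 102 and 110 in knockdown libraries, on 26 to 34 UMIs each. Without the gene limit that class held 23, 29, 44 and 57 cells and could be tested, and Bnip3l was called lower there (-0.85, adjusted p = 0.0289). The share of all genes called there is not given, so this call cannot be set against a background.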

How the data were processed

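The authors deposited UMI counts per gene and barcode, raw and filtered, from 10x Genomics 3′ libraries with antibody tags, aligned to mm10 with Cell Ranger (version 6.1.1 in the headers of the filtered files). The submitters' processing notes also name Seurat 4.0.0. Antibody tags were not used here.

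Barcodes with 200 to 3000 genes, at most 5% mitochondrial UMIs, at least 1 Cd3d, Cd3e or Cd3g UMI and under 5 myeloid marker UMIs were kept. The limit of 3000 genes removed 20.2 to 25.2% of barcodes that passed the other limits on quality. Cells with RNA of both lineages (3.79 to 6.55%) were left out, and no doublet caller was used in the main counts. The classes held 5721, 4857, 2558 and 3327 cells of control 1, control 2, knockdown 1 and knockdown 2.

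Counts were summed per library and class and tested with edgeR 4.0.16 (quasi-likelihood, TMM, filterByExpr; R 4.3.3), adjusted over all 9139 to 10979 genes tested. Knockdown was tested within each class, and classes were compared in 1 fit with library as a block. A call needed an adjusted p under 0.05 and a fold of 1.5, and counts without the fold limit are a stated alternative. The script was tested on simulated data. Alternatives were DESeq2 1.42.0, other filters, thresholds and lineage calls, a simulated-doublet score and leaving out each library. Total UMI scaling and leaving out ribosomal and mitochondrial genes were chosen after seeing the data.

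Members and lists were chosen with earlier results of these data known. Values in every library are given for called members whose libraries do not overlap, up to the 8 with the largest change per comparison, and for related pairs of genes. Other values were chosen after they were seen. Whether same-numbered libraries deviate together was checked (correlations -0.0152 to 0.0224 over genes in 5 classes), and they were not treated as pairs. Promoters were read from RefSeq.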

Additional observations from a re-analysis of the deposited data

Results flagged for a closer look

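The knockdown difference of several members depended on the Ccl5 class, by the interaction test in edgeR with Benjamini-Hochberg adjustment over 10940 genes. In Cd4 cells the effect in the Ccl5-high class minus that in the Ccl5-low class was -0.88 for Hif1a, -0.43 for Ldha, -0.39 for Eno1, -0.36 for Gapdh and -0.29 for Mif on the log2 scale. In Cd8 cells it was -0.45 for Eno1, -0.36 for Mif and -0.25 for Ldha. The difference of Mif in Cd4 cells was lost in 7 of 16 refits and that of Ldha in Cd8 cells in 10 of 16, among them DESeq2 (adjusted p = 0.177) and total UMI scaling (0.139) for Ldha and the refit without the gene limit (0.266) for Mif. Myeloid marker levels, mitochondrial share and the level of Ccl5 also moved with the groups within these classes, and their part in the result was not tested.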

How the results depend on the processing

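With 2 libraries a group, p-values measure the spread between these libraries, or that of class differences between them. Counts of members past a threshold were often small. For refits with another setting or without 1 library the shares of all genes are not given, so their counts cannot be set against a background. No member that passed an adjusted p of 0.05 turned its direction under these settings, except under total UMI scaling Ldha between Ccl5 classes of Cd4 cells (0.01), Mif (0.14) and Eno1 (0.03) between Foxp3 and Cd4 cells, and Gpi1 (-0.08) and Pgk1 (-0.05), higher by 0.11 and 0.13 before, between Ccl5-low Cd8 and Cd4 cells. Among the recomputed counts 247 stayed within 1.5 times and 81 did not, and among the recomputed gene values 1798 kept their side of the threshold, 255 lost it and 5 turned. The cause of the changes was not tested unless the setting itself gives it.

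In Ccl5-high Cd4 cells the 1 member called became 2 with the doublet score, stricter lineage calls, no cycling cells, DESeq2 or total UMI scaling, 8 with no fold limit and 0 with a fold of 2, and 1 to 2 when a library was left out. The 8 without a fold limit became 5 with stricter lineage calls or DESeq2 and 5 to 6 when a library was left out. In Ccl5-low Cd4 cells the 0 called became 1 with no gene limit, Ccl5 scaled to 20 per 5000 UMIs or no count filter, and 0 to 1 when a library was left out. Without a fold limit they became 2 with no gene limit, 1 with the doublet score, a Ccl5 threshold of 10 or stricter lineage calls, 4 with scaled Ccl5, 5 with no count filter, 3 with total UMI scaling, and 0 to 1 when a library was left out.

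In Ccl5-high Cd8 cells the 1 called became 2 with no gene limit or a Ccl5 threshold of 10, 0 with DESeq2, 11 with no fold limit and 0 when any library was left out. The 11 became 7 with the doublet score or scaled Ccl5, 3 with DESeq2 and 6 to 8 when a library was left out. In Ccl5-low Cd8 cells the 0 called became 5 with no fold limit and 0 to 1 when a library was left out, and the 5 became 0 with DESeq2 and 0 to 5 when a library was left out. In Foxp3 cells the 0 called became 2 with no fold limit. Those 2 became 1 with the doublet score, scaled Ccl5, myeloid cells kept or no cycling cells, 0 with a Ccl5 threshold of 10, stricter lineage calls or DESeq2, and 0 to 2 when a library was left out.

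For the interaction in Cd4 cells the 1 called became 5 with no fold limit and 0 with a fold of 2, and the 5 became 3 to 5 when a library was left out. In Cd8 cells the 0 called became 3 with no fold limit, and those 3 became 5 with no gene limit. Between Ccl5 classes the 8 of Cd4 cells became 5 with no gene limit or a fold of 2, 13 with total UMI scaling (11 higher and 2 lower), 19 with no fold limit and 5 to 8 when a library was left out. The 10 of Cd8 cells became 5 with no gene limit or a fold of 2, 21 with no fold limit and 6 to 10 when a library was left out. Between Cd8 and Cd4 cells the 8 of Ccl5-high cells became 15 with no fold limit, 4 with a fold of 2 and 5 to 7 when a library was left out, and the 6 of Ccl5-low cells became 3 with DESeq2, 17 with no fold limit and 2 with a fold of 2. The 11 between Foxp3 and Cd4 cells became 23 with no fold limit. With no fold limit, 3062 of all 10940 genes were higher and 3112 lower between Ccl5 classes of Cd4 cells. In Cd8 cells these were 3140 and 3200. Between Cd8 and Cd4 cells they were 1391 and 1171 among Ccl5-high and 1935 and 1773 among Ccl5-low cells. Between Foxp3 and Cd4 cells they were 2307 and 2344.

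With the replicate number as a block, 8 members were lower in Ccl5-high Cd4, 10 in Ccl5-high Cd8 and 2 in Ccl5-low Cd4 cells without a fold limit. The libraries share only a number, so this block carries no pairing.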
